A study of Mus musculus with 8 samples.

Results

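The 10 genes described here take part in cholesterol efflux, its storage, its release from the lysosome or the transcriptional response to oxysterols. They were taken by name from the count table of brown adipose tissue (BAT), as the rows for Nr1h3, Nr1h2, Abca1, Abcg1, Apoe, Pltp, Soat1, Npc1, Npc2 and Mylip, which makes 10 of the 31053 genes listed. The liver X receptors (LXRs) are nuclear receptors that bind oxysterols, pair with retinoid X receptors, and switch on genes that move cholesterol out of the cell. Cholesterol taken up with lipoproteins or engulfed cells is freed in the lysosome, carried out of it by the NPC proteins, and then either esterified for storage in lipid droplets or handed by transporters to apolipoproteins. In adipose tissue these steps are best known from macrophages that take up lipid, while adipocytes hold much free cholesterol at the surface of their lipid droplets.

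Transcripts were counted by bulk RNA-seq in the BAT of 4 mice of each genotype, WT and Ucp1Δ/Δ, all on the C57BL6/J strain, male by the study's methods and 10 weeks old by the labels, whereas the study's legend gives a younger age. Ucp1Δ/Δ mice, labelled ATGLKO, came from crossing Pnpla2 fl/fl mice with mice in which the Ucp1 promoter drives Cre, so that Pnpla2, the gene of the triglyceride lipase ATGL, is lost in cells that express Ucp1 and kept in the macrophages, fibroblasts and vessels of the same tissue. Whether the WT mice carried the floxed allele or Cre was not given in the sources used here. By their labels the samples are stromal vascular fraction, from which adipocytes are removed, but adipocyte transcripts were abundant in every mouse: the 12 brown adipocyte markers examined summed to between 14312 and 25203 CPM in WT mice and between 11276 and 16803 CPM in Ucp1Δ/Δ mice. CPM, the unit of all levels given here, is the count of a gene scaled to the TMM-adjusted library size of its mouse.

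In BAT of Ucp1Δ/Δ mice, 4 of the 10 genes rose and 0 fell. The test was the quasi-likelihood test of edgeR on all 8930 genes with enough counts, with p adjusted by Benjamini-Hochberg and a threshold of 0.05. The 4 were the storage enzyme gene Soat1, the lipid transfer protein gene Pltp, the transporter gene Abcg1 and the apolipoprotein gene Apoe. Over all tested genes 21% were called in either direction, 13.3% as higher and 7.63% as lower. All 10 genes passed the filter on low counts, and their median log2FC was 0.32, beside -0.0087 over all tested genes. The receptor genes Nr1h3 and Nr1h2, the transporter gene Abca1, the lysosomal genes Npc1 and Npc2 and Mylip did not pass the test. Before adjustment 2 of these, Nr1h3 and Npc2, were lower at the threshold of 0.05 in the edgeR fit, and DESeq2 and limma also called 0 of the 10 genes lower. For 3 genes (Soat1, Pltp and Apoe) every Ucp1Δ/Δ mouse lay above every WT mouse, which 14.4% of all tested genes showed, and for Nr1h2 every Ucp1Δ/Δ mouse lay below, which 9.37% showed. The genotypes overlapped in the remaining 6 genes.

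**Figure D1:**
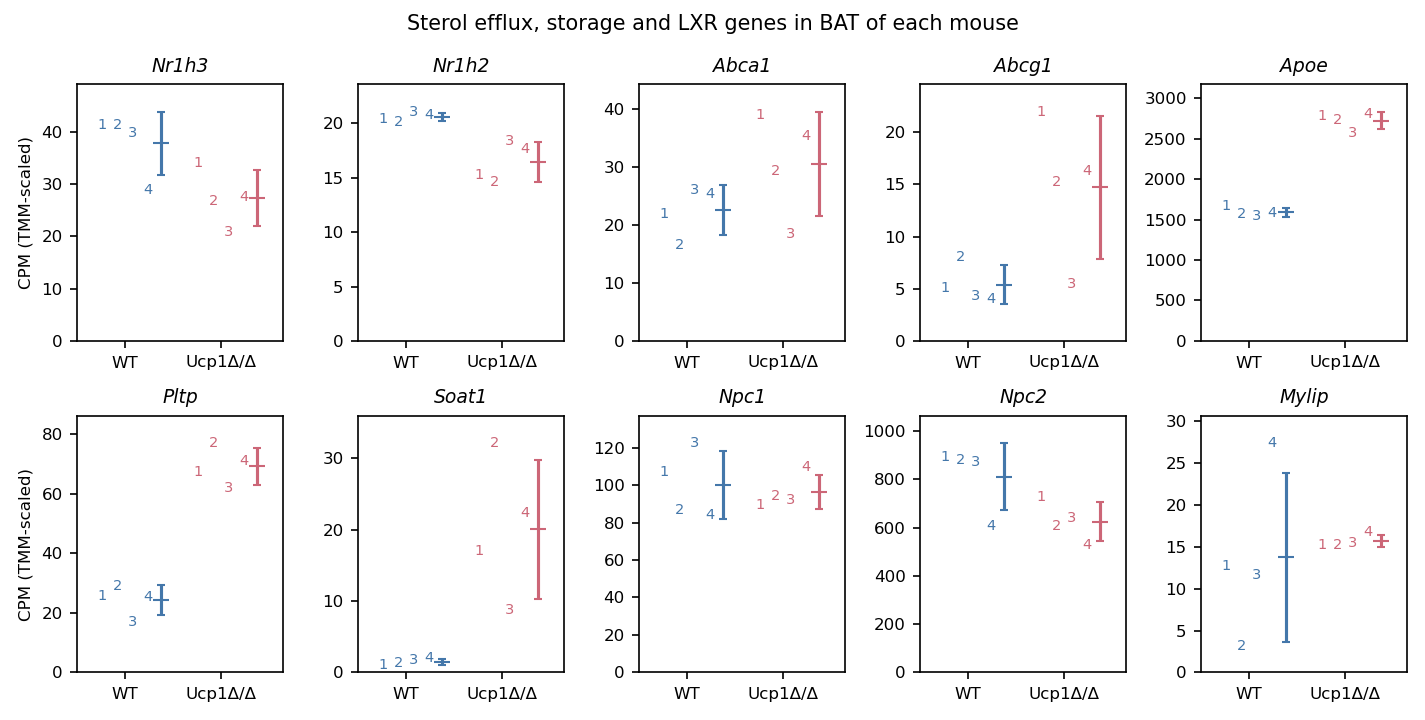
Level of each of the 10 genes in BAT of each mouse, in CPM on linear axes that start at 0. Digits are replicate numbers, and the horizontal line with its bar is the mean ± SD of 4 mice. Soat1, Pltp and Apoe show no overlap between genotypes with Ucp1Δ/Δ mice higher, and in Abcg1 the Ucp1Δ/Δ replicate 3 falls to 5.43 CPM, among the WT mice.

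Soat1 encodes the acyltransferase of the endoplasmic reticulum that esterifies free cholesterol for storage in droplets (chr1:156424525-156474331 of mm10, minus strand, protein coding). In WT replicates 1 to 4 its level was 1.02, 1.34, 1.67 and 2.03 CPM, from 2, 3, 5 and 4 reads. Ucp1Δ/Δ replicates 1 to 4 had 17.0, 32.0, 8.78 and 22.3 CPM, from 48, 103, 21 and 52 reads. WT BAT was thus close to the lower limit of detection, 3 reads being worth between 0.933 and 1.53 CPM, and each Ucp1Δ/Δ mouse exceeded it several-fold while varying widely among themselves, with replicate 2 highest and replicate 3 lowest. The means were 1.51 ± 0.432 CPM (SD, n = 4) and 20.03 ± 9.76 CPM (SD, n = 4), and the log2FC was 3.69 (standard error 0.44, 95% interval 2.75 to 4.62, adjusted p = 2.56e-05 from the same edgeR test). Only 0.493% of the tested genes had a larger log2FC. Because the WT counts are few, the ratio of the summed counts, 224 against 14, was also taken per library size and was 13.6, with an exact 95% interval from 7.95 to 25.3 that covers counting error only. Leaving out any mouse kept the log2FC between 3.36 and 3.94.

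Pltp encodes phospholipid transfer protein, which is secreted and moves phospholipid and cholesterol between lipoproteins as HDL is remodelled (chr2:164839518-164857711, minus strand). Its level was 25.5, 29.1, 17.0 and 25.3 CPM in WT replicates 1 to 4. The Ucp1Δ/Δ mice had 67.2, 76.9, 61.8 and 70.8 CPM. These levels were tightly grouped, and the lowest of them was more than double the highest WT level. Pltp rose from 24.2 ± 5.12 to 69.2 ± 6.30 CPM (SD, n = 4 each), or 2.85-fold (log2FC 1.52, standard error 0.19, adjusted p = 3.95e-05), and stayed called without any 1 mouse. Its exons overlap those of Ctsa, which encodes the lysosomal protective protein cathepsin A on the other strand, over 495 bases. Whether the counting used strand was not given in the sources used here, so reads of the shared bases cannot be assigned to either gene. Ctsa itself rose, from 31.7 ± 12.1 to 69.6 ± 6.08 CPM (log2FC 1.14, standard error 0.23, adjusted p = 0.00201).

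Abcg1 encodes a half-transporter that exports cholesterol to HDL (chr17:31057675-31117988, plus strand). WT replicates 1 to 4 had 5.10, 8.06, 4.34 and 4.05 CPM. Levels in the Ucp1Δ/Δ mice were 21.9, 15.2, 5.43 and 16.3 CPM. Ucp1Δ/Δ replicates 1, 2 and 4 were above every WT mouse, whereas replicate 3, with 13 reads, lay between WT replicates 1 and 2. The means were 5.39 ± 1.84 and 14.7 ± 6.86 CPM (SD, n = 4 each), and the log2FC was 1.46 (standard error 0.38, 95% interval 0.65 to 2.26, adjusted p = 0.0118). From the summed counts of 49 and 162, the ratio per library size was 2.81, with an exact 95% interval from 2.03 to 3.96 for counting error. The adjusted p lay between 0.000744 and 0.049 over the 8 fits that each left out 1 mouse. Without WT replicate 1 and Ucp1Δ/Δ replicate 2, whose skeletal muscle markers were the highest of each genotype, the log2FC was 1.44 and the adjusted p 0.0666, an alternative added after seeing the data.

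Abca1 encodes the transporter that loads cholesterol and phospholipid onto lipid-poor apolipoproteins (chr4:53030787-53159895, minus strand). Its level was 21.9, 16.6, 26.0 and 25.3 CPM in WT replicates 1 to 4 and 38.9, 29.2, 18.4 and 35.2 CPM in Ucp1Δ/Δ replicates 1 to 4. As with Abcg1, Ucp1Δ/Δ replicates 1, 2 and 4 exceeded every WT mouse and replicate 3 did not. The log2FC was 0.44 (standard error 0.24, adjusted p = 0.226), and its 95% interval, -0.07 to 0.95, covers no change as well as an almost doubled level. Within each mouse, the log2 ratio of Abca1 to Abcg1 was 1.93 ± 0.68 in WT and 1.10 ± 0.36 in Ucp1Δ/Δ mice (SD, n = 4 each). That difference of -0.83 did not pass a two-sided exact permutation test (p = 0.0857, adjusted p = 0.214 over the 3 ratios examined), for which 4 mice against 4 allow a smallest p of 0.0286.

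Apoe encodes apolipoprotein E, the secreted acceptor and carrier of cholesterol made by macrophages, hepatocytes, astrocytes and adipocytes (chr7:19696109-19699188, minus strand). In WT mice its level was 1670, 1567, 1548 and 1579 CPM, and in Ucp1Δ/Δ mice 2785, 2728, 2571 and 2806 CPM. The gene gave between 3117 and 8768 reads per mouse, and the coefficient of variation was 3.42% among WT mice and 3.90% among Ucp1Δ/Δ mice, the genotypes lying well apart. Apoe rose from 1591 ± 54.3 to 2722 ± 106 CPM (SD, n = 4 each), or 1.71-fold (log2FC 0.77, standard error 0.15, 95% interval 0.46 to 1.09, adjusted p = 0.00149). Apoc1, another LXR target gene and an inhibitor of lipoprotein clearance, lies on the same strand 3448 bases away (chr7:19689481-19692660). It fell, with levels of 495, 830, 574 and 287 CPM in WT mice and 234, 153, 185 and 152 CPM in Ucp1Δ/Δ mice (log2FC -1.59, standard error 0.26, adjusted p = 0.000448). The neighbouring genes thus moved in opposite directions in the same libraries. Apoc4 and Apoc2, which complete the cluster at 14629 and 18167 bases from Apoe, had too few counts to be tested.

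Nr1h3 encodes LXRα, the receptor form that is abundant in macrophages, liver and adipose tissue (chr2:91184061-91202834, minus strand). Its level was 41.3, 41.2, 39.7 and 28.9 CPM in WT replicates 1 to 4 and 34.0, 26.8, 20.9 and 27.5 CPM in Ucp1Δ/Δ replicates 1 to 4. WT replicate 4 was lower than the other WT mice and fell within the range of the Ucp1Δ/Δ mice. The log2FC was -0.47 (standard error 0.20, 95% interval -0.89 to -0.05, adjusted p = 0.112), and without WT replicate 4 it was -0.59 with an adjusted p of 0.0429. Nr1h3 overlaps 34 exonic bases of the annotated gene Gm13783 on the same strand. Nr1h2 encodes LXRβ, the form found in most cell types (chr7:44549616-44553951, minus strand). WT levels were 20.4, 20.2, 21.04 and 20.8 CPM and Ucp1Δ/Δ levels 15.2, 14.6, 18.4 and 17.6 CPM. The genotypes did not overlap, but at 40 to 63 reads per mouse the log2FC of -0.33 (standard error 0.19, 95% interval -0.73 to 0.07) gave an adjusted p of 0.249. Neither receptor gene was therefore called in either direction while Soat1, Pltp, Abcg1 and Apoe rose. The within-mouse log2 ratio of Nr1h3 to Nr1h2 was 0.84 ± 0.26 in WT and 0.69 ± 0.40 in Ucp1Δ/Δ mice (SD, n = 4 each; two-sided exact permutation test, p = 0.571).

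Npc1 is the membrane protein and Npc2 the soluble protein that pass cholesterol out of the lysosome. Npc1 levels were 107, 86.5, 122 and 84.1 CPM in WT mice and 89.5, 94.0, 91.9 and 109 CPM in Ucp1Δ/Δ mice, and its log2FC was -0.06 (standard error 0.17, adjusted p = 0.854). Its 95% interval, -0.43 to 0.31, leaves out a doubled or halved level. Exons of Npc1 share 601 bases with those of Gm15956 and Rmc1 on the other strand, both of which had too few counts to be tested. Npc2 (chr12:84754562-84773152, minus strand) was at 890, 878, 869 and 605 CPM in WT replicates 1 to 4 and at 726, 607, 638 and 528 CPM in Ucp1Δ/Δ replicates 1 to 4. As for Nr1h3, WT replicate 4 lay apart from the other WT mice, at the level of the Ucp1Δ/Δ mice. The log2FC of Npc2 was -0.38 (standard error 0.18, 95% interval -0.75 to -0.0030, adjusted p = 0.15), and without WT replicate 4 it was -0.50 with an adjusted p of 0.033. The brown adipocyte markers of WT replicate 4 summed to 14312 CPM, the lowest of the WT mice, and its mitochondrially encoded share of 45.6% was the highest of all mice. The part of these in its Nr1h3 and Npc2 levels was not tested. The within-mouse log2 ratio of Npc1 to Npc2 was -3.01 ± 0.24 in WT and -2.68 ± 0.31 in Ucp1Δ/Δ mice (SD, n = 4 each; two-sided exact permutation test, p = 0.143, adjusted p = 0.214).

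Mylip encodes IDOL, a ubiquitin ligase that LXRs induce and that lowers lipoprotein uptake (chr13:45389742-45412022, plus strand). Levels were 12.7, 3.14, 11.7 and 27.4 CPM in WT mice, from 25, 7, 35 and 54 reads, and 15.2, 15.2, 15.5 and 16.7 CPM in Ucp1Δ/Δ mice. The WT mice spread on both sides of the closely grouped Ucp1Δ/Δ mice, with a coefficient of variation of 73.2% against 4.63%. The log2FC was 0.21 (standard error 0.39, 95% interval -0.61 to 1.04, adjusted p = 0.755), so that both a fall and a doubled level lie inside its interval, and its sign turned without WT replicate 2 (-0.13).

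**Figure D2:**
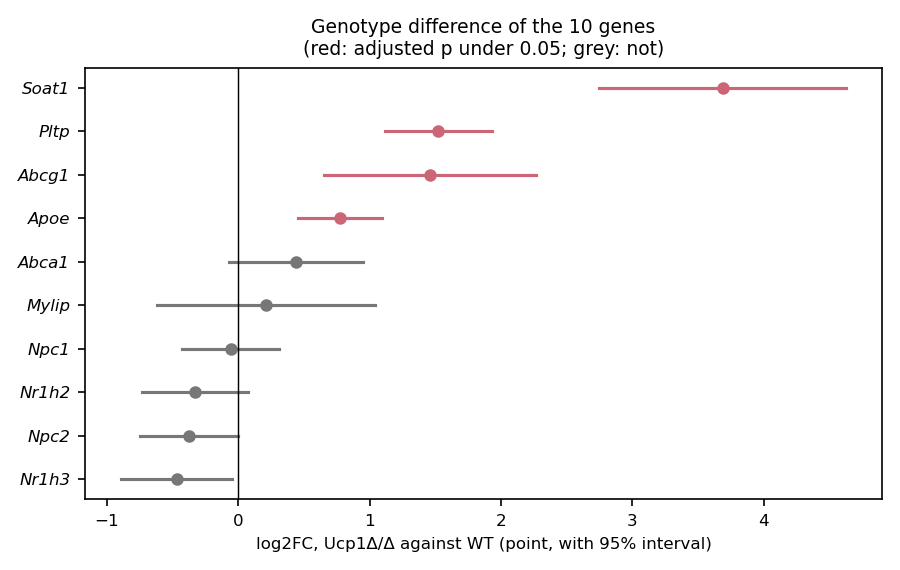
log2FC of each of the 10 genes, Ucp1Δ/Δ against WT, as a point with its 95% interval from the edgeR fit, red where the adjusted p was under 0.05. The intervals of Soat1 (2.75 to 4.62), Pltp, Abcg1 and Apoe lie above 0. Those of Nr1h3 (-0.89 to -0.05) and Npc2 have upper ends just below 0, although neither gene passed the adjusted test.

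The sequence upstream of the start is shown for the 3 genes that rose with no overlap between genotypes and for Abca1, whose promoter is the textbook site of LXR binding. RefSeq promoters of GRCm38.p6 (mm10) were matched by symbol for 8 of the 10 genes, and Abcg1 and Npc1 had no entry in the table. Each run holds the 250 bases before the start, 5′ to 3′ on the strand of the gene, in lower case with motif matches in capitals.
Abca1 (chr4:53159896-53160145, minus strand): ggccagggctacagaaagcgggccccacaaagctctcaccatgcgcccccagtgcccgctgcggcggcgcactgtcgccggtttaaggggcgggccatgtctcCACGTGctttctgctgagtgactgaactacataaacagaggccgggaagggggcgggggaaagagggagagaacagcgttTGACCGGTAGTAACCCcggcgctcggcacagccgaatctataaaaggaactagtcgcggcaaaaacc
Soat1 (chr1:156474329-156474578, minus strand): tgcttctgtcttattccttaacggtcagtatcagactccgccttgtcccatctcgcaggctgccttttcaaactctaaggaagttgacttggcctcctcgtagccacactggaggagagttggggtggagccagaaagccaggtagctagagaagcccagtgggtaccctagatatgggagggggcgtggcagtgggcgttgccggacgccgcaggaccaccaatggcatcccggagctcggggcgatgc
Pltp (chr2:164857709-164857958, minus strand): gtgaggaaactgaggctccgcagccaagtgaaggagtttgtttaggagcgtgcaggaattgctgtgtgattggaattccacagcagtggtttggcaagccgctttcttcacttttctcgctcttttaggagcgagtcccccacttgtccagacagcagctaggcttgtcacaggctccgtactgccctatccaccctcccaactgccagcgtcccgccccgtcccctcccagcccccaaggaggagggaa
Apoe (chr7:19699189-19699438, minus strand, first of its entries): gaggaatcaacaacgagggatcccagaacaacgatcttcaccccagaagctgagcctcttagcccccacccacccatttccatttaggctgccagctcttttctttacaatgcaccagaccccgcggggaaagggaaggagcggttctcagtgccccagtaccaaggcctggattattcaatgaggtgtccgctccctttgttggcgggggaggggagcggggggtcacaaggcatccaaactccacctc
The LXR element searched was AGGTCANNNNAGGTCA, a direct repeat with 4 bases between its copies, known as DR4, on both strands. With up to 2 mismatches among its 12 fixed letters, it was in 2.57% of the 250-base windows of all 32851 promoters and in 0 of the 11 windows of the 8 matched genes. A search with up to 3 mismatches was added after that result, and its background share is 18.5%. Among the 8 genes it matched Abca1, at bases 67 to 52 before the start, on the strand opposite to the gene, as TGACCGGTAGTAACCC. The E-box core CACGTG, the letters bound by the lysosomal regulators TFEB and TFE3, was in 6.02% of all windows and, among the 8 matched genes, in that of Abca1, 147 to 142 bases before the start. The AP-1 letters TGANTCA were in 6.75% of all windows and in 0 of the same 11. Matches of different motifs did not overlap, and CACGTG reads the same on both strands. These are descriptions of letters in a short window, and elements outside it were not searched.

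Macrophage transcripts rose in the same mice. Of 15 macrophage markers 12 had enough counts to be tested, and all 12 rose, with a median log2FC of 2.97. The 15 markers summed to between 162 and 198 CPM in WT mice and to 1457, 1862, 1136 and 1150 CPM in Ucp1Δ/Δ replicates 1 to 4. None was at 0 in every mouse, and the 3 with the highest means were Lyz2, C1qa and C1qb. Ucp1Δ/Δ replicate 2, which had the highest Soat1 level, also had the highest sum, and replicate 3, which was the lowest Ucp1Δ/Δ mouse for 6 of the 10 genes, had the lowest. The order differed in between: replicate 4 had more Soat1 than replicate 1 (22.3 against 17.0 CPM) but a lower sum. Replicates 3 and 4 had close sums, with Soat1 at 8.78 and 22.3 CPM. In bulk tissue, more cells of a type and more RNA of a gene per cell cannot be told apart. Relative to the mean log2 CPM of the 12 tested macrophage markers in the same mouse, Soat1 stood at -2.14 ± 0.31 in WT and -1.88 ± 0.52 in Ucp1Δ/Δ mice (SD, n = 4 each), a difference of 0.27. The corresponding differences on this log2 scale were -1.28 for Pltp, -1.56 for Abcg1, -2.01 for Apoe and -2.39 for Abca1, and ranged down to -3.25 for Nr1h3. On this scale Soat1 thus differed between genotypes by about as much as the mean of the macrophage markers. The prior count narrows the difference of a gene with few WT reads, and in the edgeR fit the log2FC of Soat1 was 3.69, beside the marker median of 2.97. The other 9 genes had a difference below 0 on this scale, as has any gene that rose less than the marker mean. Few genes rose as much: 1.57% of all tested genes had a larger log2FC than the marker Adgre1 (2.80). These differences are descriptions, and the part of the macrophage content in each gene's level was not tested.

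**Figure D3:**
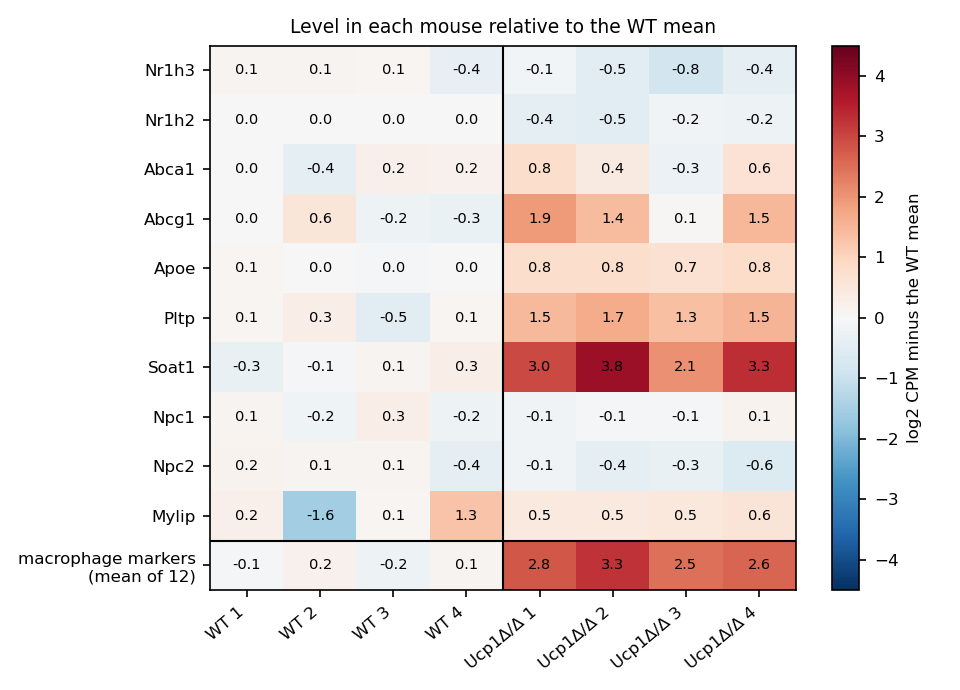
Level of each of the 10 genes in each mouse as log2 CPM (prior count 2) minus the mean of the 4 WT mice, with the mean of the 12 tested macrophage markers in the bottom row. The colour scale runs from blue (lower) to red (higher), and the digits are the plotted values rounded to 1 decimal. On this scale, in which the prior count narrows the difference of Soat1, its row resembles the macrophage row in all 4 Ucp1Δ/Δ mice. The rows of Nr1h3, Nr1h2, Npc1 and Npc2 stay pale or blue.

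Other cell types differed less. Of 8 tested fibroblast markers 7 were higher (median log2FC 1.89), with sums from 355 to 546 CPM in WT mice and from 1100 to 2200 CPM in Ucp1Δ/Δ mice, Dcn, Col1a2 and Col3a1 being the highest. The 12 brown adipocyte markers, led by Cidea, Fabp4 and Ucp1, had 1 higher and 4 lower (median -0.36). Of 7 endothelial markers 1 was higher, of 6 mural markers 2 were, and of 2 tested Schwann cell markers none was called. Over all tested genes 13.3% were called higher and 7.63% lower. T and B cell markers summed to at most 10.3 CPM and neutrophil markers to at most 8.51 CPM in every mouse, with Cd79a and Ly6g at 0. Skeletal muscle markers, of which 9 were tested and 0 called by edgeR (adjusted p at least 0.481), ran from 114 to 1851 CPM in WT and from 140 to 2486 CPM in Ucp1Δ/Δ mice. Their part in the levels of the 10 genes was not tested beyond the fit without the most muscle-rich mouse of each genotype. In that fit, which has fewer mice, 3 of the 4 genes that rose, all but Abcg1, stayed called. Over all genes 1095 were called in it, against 1872 with every mouse.

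The rest of the pathway was described with 102 other genes in 6 lists, of which 64 had enough counts to be tested. Of these, 14 were higher and 9 lower, with a median log2FC of 0.05, beside 13.3% and 7.63% of all tested genes. The transporter list also holds Abca1 and Abcg1, which enter its own counts and median but not these totals. The LXR partners and coregulators, the proteins that sit with the receptor on DNA, had 2 genes that passed of 12 tested, both higher (median 0.25). The coactivator gene Ncoa3 rose from 7.94 ± 1.82 to 16.5 ± 4.51 CPM (log2FC 1.05, standard error 0.27, adjusted p = 0.0103). The partner receptor genes Rxra, Rxrb and Rxrg did not pass the test, with log2FC of 0.06, -0.23 and -0.82.

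Among other target genes of LXR, 17 in all, 11 were tested and 2 rose while 3 fell, with a median log2FC of -0.39. Fasn, which encodes fatty acid synthase, fell (log2FC -2.29, standard error 0.23, adjusted p = 4.21e-06), and so did Lpcat3, the gene of the enzyme that puts polyunsaturated chains into phospholipids (-0.82, adjusted p = 0.0121), beside Apoc1. Arl4c, which encodes a small GTPase, rose from 10 to 82 summed reads, a ratio per library size of 6.98 (exact 95% interval 3.61 to 15.1) and a log2FC of 2.71 (standard error 0.43, adjusted p = 0.000302). Tgm2, the gene of transglutaminase 2, rose from 79.8 ± 8.37 to 128 ± 10.4 CPM (adjusted p = 0.00612). Srebf1, Scd1 and Lpl, the lipogenic and lipolytic targets, had log2FC of -0.51, -0.34 and -0.39 and were not called by edgeR. For Scd1 every Ucp1Δ/Δ mouse lay below every WT mouse, which 9.37% of all tested genes showed. The 95% interval of Lpl was -0.76 to -0.03. Abcg5, Abcg8 and Cyp7a1, which serve the liver and gut, had 0 reads in every mouse. Calls in this list thus went in both directions, beside 13.3% higher and 7.63% lower of all tested genes. The lower calls depended on the test: DESeq2's Wald test called 2 genes of the list higher and 6 lower.

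Lysosomal and cytosolic sterol handling gave 3 higher and 3 lower of 21 tested genes (median -0.23), beside 13.3% and 7.63% of all tested genes. DESeq2's Wald test called 3 genes of this list higher and 5 lower. Nceh1, which encodes a hydrolase of cholesterol esters, had 4.59, 0, 1.67 and 1.52 CPM in WT mice and 13.4, 39.2, 17.1 and 22.3 CPM in Ucp1Δ/Δ mice. Its summed reads of 17 and 257 gave a ratio of 12.9 (exact 95% interval 7.88 to 22.4), and its log2FC was 3.60 (standard error 0.52, adjusted p = 0.000127). It thus rose in every Ucp1Δ/Δ mouse, as did Soat1, which carries out the opposite reaction. Lipa, the lysosomal acid lipase that frees cholesterol from its esters, rose from 81.7 ± 32.5 to 163 ± 30.9 CPM (log2FC 0.99, standard error 0.24, adjusted p = 0.00829). Cyp27a1, the mitochondrial enzyme that makes the LXR ligand 27-hydroxycholesterol, rose from 17.8 ± 2.84 to 34.1 ± 6.44 CPM (log2FC 0.93, standard error 0.21, adjusted p = 0.004). Gramd1a, which encodes an Aster protein that carries cholesterol from the plasma membrane to the endoplasmic reticulum, fell from 17.7 ± 6.81 to 6.50 ± 1.03 CPM (log2FC -1.43, standard error 0.31, adjusted p = 0.00333). Ch25h, which makes another oxysterol, was at 0 in every mouse.

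Lipoprotein receptor genes, 10 of them tested, gave 3 higher and 3 lower (median 0.08), beside 13.3% and 7.63% of all tested genes. Vldlr, the receptor of triglyceride-rich lipoproteins, fell in a narrow range, from 156, 167, 133 and 160 CPM in WT mice to 63.3, 66.9, 62.7 and 72.1 CPM in Ucp1Δ/Δ mice (log2FC -1.21, standard error 0.16, adjusted p = 5.61e-05). Sorl1, a sorting receptor that binds apolipoprotein E, fell from 12.4 ± 1.75 to 4.44 ± 1.05 CPM (adjusted p = 0.00122). Lrp1, a receptor of apolipoprotein E remnants, rose from 50.1 ± 8.46 to 95.8 ± 15.4 CPM (log2FC 0.94, standard error 0.18, adjusted p = 0.00162). Msr1, the macrophage scavenger receptor, rose from 18 to 120 summed reads (ratio 5.67, exact 95% interval 3.44 to 9.90, adjusted p = 0.00139).

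Of 16 genes for HDL and plasma apolipoproteins, 4 were tested and Clu, which encodes the secreted chaperone clusterin, also called apolipoprotein J, was the 1 that rose. Its level was 13.8, 10.8, 5.68 and 12.2 CPM in WT mice and 87.7, 90.2, 59.8 and 71.3 CPM in Ucp1Δ/Δ mice (log2FC 2.90, standard error 0.25, adjusted p = 1.41e-06). Apoa4, Apoa5, Apob, Apoh and Lipc, products of the liver and gut, had 0 reads in every mouse. The transporter genes of the ABCA and ABCG families had 8 tested, Abca1 and Abcg1 among them. Of the 8, 4 passed, all higher (median 0.76), where 13.3% of all tested genes were higher. Beside Abcg1 these were Abca9 (log2FC 1.43, standard error 0.34, adjusted p = 0.00717), Abcg2, the gene of a drug and urate exporter (1.13, standard error 0.30, adjusted p = 0.0125), and Abca8a (0.89, standard error 0.24, adjusted p = 0.0138). The call of Abcg2 was lost without WT replicate 3 (adjusted p = 0.0546 from edgeR), and that of Abca8a without WT replicate 1 (0.0513), Ucp1Δ/Δ replicate 2 (0.0531) or Ucp1Δ/Δ replicate 3 (0.0512). In the fit without the most muscle-rich mouse of each genotype, which has fewer mice, 0 of the 8 passed the edgeR test. The adjusted p there was 0.064, 0.0712 and 0.141 for Abca9, Abcg2 and Abca8a.

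**Figure D4:**
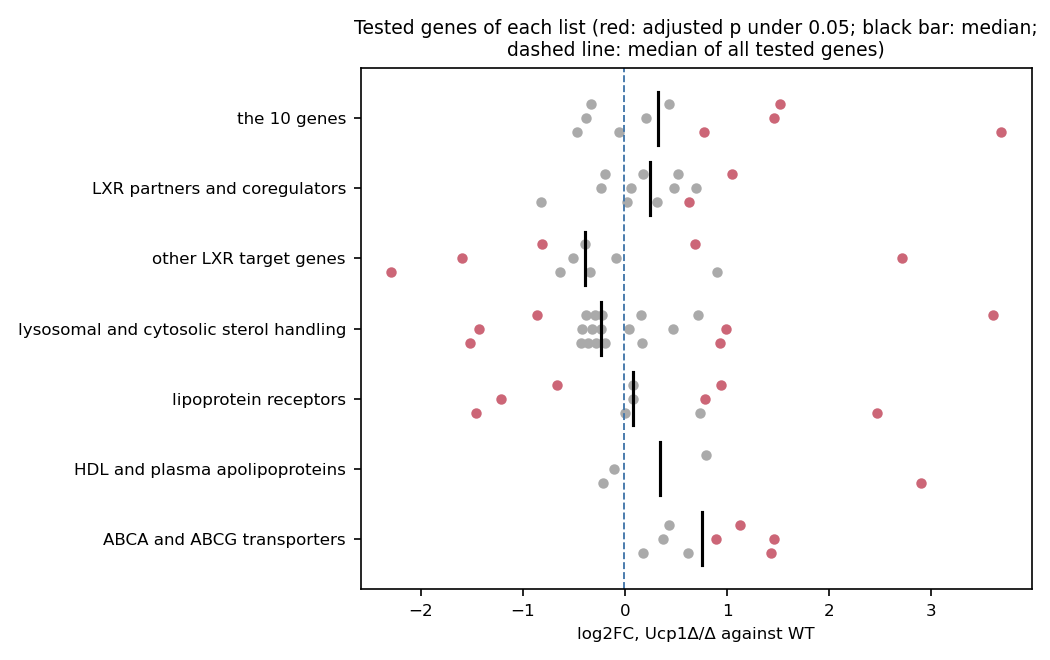
log2FC of every tested gene in the 10 genes and in each of the 6 lists of related genes, 1 point per gene, red where the adjusted p was under 0.05, with a black bar at the median of each list and a dashed line at the median of all tested genes (-0.0087). Red points lie on both sides of 0 in the lists of other LXR target genes, sterol handling and lipoprotein receptors, and on the right alone in the other lists. Abca1 and Abcg1 are plotted both among the 10 genes and in the transporter list.

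The tested genes whose profile over the 8 mice was most like that of each gene that rose were found by the root mean square difference of log2 CPM centred on the WT mean, among 6427 genes with a mean of at least 10 CPM. For Soat1 these were Cybb, a subunit of the phagocyte NADPH oxidase, at 0.403, Cd44, the hyaluronan receptor, at 0.431, and Spi1, the myeloid transcription factor PU.1, at 0.439. Abcg1 was most like Litaf at 0.244, Aprt at 0.303 and Daglb at 0.372. Pltp came closest to Gsn, the actin-severing gelsolin, at 0.125, then Nova1 at 0.143 and Anxa3 at 0.147. Apoe lay within 0.0642 of Actn4, 0.0650 of Plekhm2 and 0.103 of Lmo4. The measure includes the genotype difference, so genes with a log2FC near that of the gene rank high whether or not they vary together within a genotype. The 3 genes for Soat1 had log2FC of 3.14, 3.59 and 3.51. The root mean square differences are smaller where a gene has more reads, so they rank genes for 1 gene and not between the 4.

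Pnpla2 fell from 2913 ± 191 CPM in WT to 474 ± 59.2 CPM in Ucp1Δ/Δ mice (SD, n = 4 each), which the edgeR fit put at -2.62 on the log2 scale (standard error 0.17, adjusted p = 1.97e-07), and each Ucp1Δ/Δ mouse was below each WT mouse. Total counts were between 2017697 and 3115956 per mouse and gave no difference between genotypes past the threshold (two-sided exact permutation test, p = 0.629), and 38.4 to 45.6% of them came from mitochondrially encoded genes.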

How the data were processed

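BAT of 4 WT and 4 Ucp1Δ/Δ mice was profiled by digital mRNA-seq from 50 ng of total RNA, read from a single end. The deposited values are whole-number counts per Ensembl gene without normalization, for which the study's methods name bbduk, STAR and HTseq-counts on mm10 and the submitters' processing notes name Trimmomatic and HISAT2. The strand setting and annotation release were not given in the sources used here. The authors also deposited log2 values, each equal to the log2 of the count over 1 factor per mouse, plus 1, which served for 1 alternative. Symbols and positions came from GENCODE M21 (30934 of 31053 identifiers).

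Counts were filtered with filterByExpr, scaled by TMM and tested with edgeR 4.0.16 in R 4.3.3 on genotype alone, with Benjamini-Hochberg adjustment over 8930 genes and a threshold of 0.05. Standard errors are the log2FC over the square root of F, and 95% intervals use 15.3 degrees of freedom. log2 CPM has a prior count of 2. Exact intervals of count ratios and the limit of 3 reads cover counting error only. Tests were checked on simulated counts. Mice are different animals, and the edgeR test sets the genotype difference against the variation between them. That variation is estimated with information shared across genes.

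The 10 genes, the lists and the tests were chosen with earlier results of these data known. Named genes were Pnpla2, the 10 genes, up to 4 called genes per list with the smallest adjusted p, the 3 most alike genes, and in each marker list the 3 highest genes and those at 0. Lpcat3, Srebf1, Scd1, Lpl, the 3 retinoid X receptor genes, Ctsa, Apoc2 and Apoc4 were named outside this rule, after their values were seen. Some genes of the lists enter the counts and are not reported here by name. Alternatives used limma 3.58.1 and DESeq2 1.42.0.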

Additional observations from a re-analysis of the deposited data

Results flagged for a closer look

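Of 58 groups of 4 mice, 4 held a mouse set apart from the rest, by the gap to its nearest neighbour as a share of the whole range of log2 CPM, where about 2.9 are expected by chance. For Nr1h3 in WT replicate 4 that share was 0.892: its log2 CPM was 4.89, and the other WT mice ranged from 5.34 to 5.40. For Npc2 the same mouse gave 0.938, with 9.24 against 9.76 to 9.80. Tgm2 in WT replicate 2 gave 0.875, with 6.54 against 6.23 to 6.27. Mylip in Ucp1Δ/Δ replicate 4 gave 0.831, with 4.13 against 4.00 to 4.02, a gap of few reads.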

How the results depend on the processing

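Of 29 named genes, 20 kept their direction and their side of the threshold in every alternative run, among them Soat1, Pltp, Apoe and Pnpla2. Soat1, Abcg1 and Mylip were dropped where every mouse had to have at least 10 counts, which left 7 of the 10 genes and 2 calls, both higher (1195 genes called over all, 746 higher and 449 lower). Scaling by total counts only shifted the median log2FC of all genes to 0.13 and gave 404 lower genes, with 78.5% of calls higher against 63.6%. Under it the log2FC of Npc1 was 0.079, and under the filter of 10 counts it was 0.011, against -0.06. DESeq2's Wald test called 14 related genes lower, against 9. With at least 1 count in any mouse, 16617 genes were tested and 2513 called. Without the most muscle-rich mouse of each genotype, 1095 genes were called, 279 of them lower, and 74.5% of calls were higher.

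Over the fits that left out 1 mouse each, 1345 to 2155 genes were called (945 to 1304 higher, 400 to 851 lower), the fewest without Ucp1Δ/Δ replicate 2. Calls among the 10 genes ran from 4 to 6 and lower calls from 0 to 2, the 2 being Nr1h3 and Npc2 without WT replicate 4. Related genes called ran from 19 to 26. The log2FC ran from -0.14 to 0.045 for Npc1, which turned without WT replicate 3, and from -0.13 to 0.75 for Mylip. The difference in the Nr1h3 to Nr1h2 ratio ran from -0.29 to 0.022, turning without Ucp1Δ/Δ replicate 3. The cause of these changes was not tested beyond the genes and mice left out.

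The replicate number as a block left 1719 genes called (1138 higher, 581 lower) and changed no call among the 10 genes, 4 of which stayed called. Correlations of same-numbered mice lay between -0.196 and 0.304, and 1 WT mouse correlated best with its own number, so the numbers were not taken to pair the mice. Depth limits the genes with few reads: at 3 reads, worth 0.933 to 1.53 CPM, WT levels of Soat1 are near the limit.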
